A study of Mus musculus with 3 samples.

Results

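Endothelial leukocyte adhesion molecules are the surface proteins by which blood vessels hold passing leukocytes and let them through the vessel wall. Measured here were 10 such genes of 52661 in the deposited tables, picked by name and matched by Ensembl identifier: Ackr1, Selp, Sele, Icam1, Icam2, Vcam1, Pecam1, Esam, Jam2 and Cd34. All 10 were found in each table, and all reached 10 CPM (counts scaled to a common library size) in at least 1 library.

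Bulk RNA sequencing was done on 3 sorted mouse mammary cell populations, with 1 library for each, so no value has a replicate error. The labels give all 3 as epithelial cells that carry PROCR, the protein C receptor, taken from an EpCAM-positive gate with high CD49f. The CD36+ library was sorted as CD36 positive and PDPN (podoplanin) negative and is titled Cdh5 positive. In the PDPN+ library the cells were CD36 negative and PDPN positive, titled Cdh5 negative, and double-negative cells lacked both proteins and are titled Cdh5 positive. Strain, age, number of mice and number of cells were not stated in the labels, and no treatment is named.

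In background terms, capture of a leukocyte runs in steps. Selectins on the vessel wall bind sugar-bearing ligands and slow the cell, chemokines presented at the surface activate it, and immunoglobulin-type ligands such as ICAM-1 and VCAM-1 then hold its integrins. Junction proteins such as PECAM-1, ESAM and JAM-B line the cleft through which it leaves. P-selectin is stored in granules of endothelial cells and platelets, E-selectin is made after cytokine stimulation, and ACKR1 marks venules, where most capture takes place.

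The 2 selectin genes lie near each other on chromosome 1 of mm10, both on the plus strand, with Sele at 164048234 to 164057677 and Selp at 164115264 to 164150026. Upstream sequence for 5 of the 10 genes was found in the RefSeq promoter table (build GRCm38.p6, the mm10 sequence), and 3 are shown, since Sele, Selp and Icam1 are the genes classically induced by cytokines. Each line gives the 250 bases before the RefSeq start, 5′ to 3′ on the gene's strand. Capitals mark the letters of 4 motifs searched on both strands after the sequences had been seen: GGGA and TCC with 3 free bases between them (the wider NF-kappa B form) and GGAAATTCC (a narrower NF-kappa B form), CAGGAAG, a form of the ETS site, and TGANTCA, the AP-1 site, which reads alike on both strands.
Sele, chr1:164047984-164048233, plus strand: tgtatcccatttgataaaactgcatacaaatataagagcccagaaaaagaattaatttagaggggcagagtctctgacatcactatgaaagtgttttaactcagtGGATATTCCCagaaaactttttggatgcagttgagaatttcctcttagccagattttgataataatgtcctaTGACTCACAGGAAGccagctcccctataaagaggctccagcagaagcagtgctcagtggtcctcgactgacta
Selp, chr1:164115014-164115263, plus strand: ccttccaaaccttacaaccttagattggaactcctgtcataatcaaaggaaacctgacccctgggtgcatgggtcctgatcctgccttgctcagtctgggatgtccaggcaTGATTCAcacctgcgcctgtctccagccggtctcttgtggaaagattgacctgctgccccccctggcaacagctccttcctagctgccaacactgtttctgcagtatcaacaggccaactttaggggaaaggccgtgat
Icam1, chr9:21015690-21015939, plus strand: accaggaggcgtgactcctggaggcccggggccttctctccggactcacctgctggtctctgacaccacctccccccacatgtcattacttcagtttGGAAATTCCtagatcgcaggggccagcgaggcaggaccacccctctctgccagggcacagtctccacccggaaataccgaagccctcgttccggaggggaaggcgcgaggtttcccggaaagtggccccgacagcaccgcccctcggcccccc
The Sele window held the wider NF-kappa B form on the other strand, from 145 to 136 bases before the start, a match found in 3.86% of 32851 RefSeq windows of the same length. It also held TGANTCA at 73 to 67 bases and, next to it without overlap, CAGGAAG at 66 to 60 bases. The Selp window held TGANTCA alone, 139 to 133 bases before the start, and the Icam1 window held GGAAATTCC alone, 153 to 145 bases before it. TGANTCA was present in 6.75% of all windows, CAGGAAG in 10.8% and GGAAATTCC in 0.286%. Of the other 2 windows, that of Ackr1 held CAGGAAG on each strand and that of Cd34 held it on the other strand. The Ackr1 window, 173333504 to 173333753, lies before the RefSeq start but mostly inside the gene span given below, which reaches 173333750. Such matches describe the letters only, and none was tested for binding.

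Depth ran from 51138993 estimated counts (double-negative) to 67675778 (CD36+). Summed over 10 pan-endothelial marker genes, levels were 5072, 74.9 and 3412 CPM for CD36+, PDPN+ and double-negative cells in turn, and summed over 8 basal epithelial markers 82.2, 5886 and 245 CPM. Epcam, the gene of the gate, stood at 50.7, 560.1 and 104 CPM in the same order, and Cdh1, the epithelial cadherin, at 0.862, 214.9 and 37.0 CPM. The CD36+ library, labelled as epithelial, held 3 counts of Trp63 and 11 of Krt14, which define basal epithelium, but 1087 of Krt5 and 2189 of Acta2, and the double-negative library held Krt14 at 123 CPM. The 8 luminal epithelial markers summed to 371, 644.8 and 285 CPM, with Krt18 at 131, 284 and 145 CPM. Most of each sum was Krt8 and Krt18. In contrast, Krt19, Esr1, Prlr and Cldn3 were higher in CD36+ than PDPN+ cells, with Krt19 at 33.9, 9.33 and 36.9 CPM. The median log2 ratio of the 8 genes to the PDPN+ library was 0.80 for CD36+ and -0.81 for double-negative. By these sums both PDPN-negative libraries, labelled epithelial, held more endothelial than basal or luminal marker transcript. Of the genes whose proteins the labels give to all 3 populations, Itga6, which encodes CD49f, stood at 436, 1021 and 399 CPM in the same order. Procr stood at 746, 208 and 528 CPM, so both were uneven between the libraries, as Epcam was. Among the genes by which the labels tell the libraries apart, Cdh5 and Pdpn followed the labels and Cd36 did so in part. Cdh5 stood at 465, 0.176 and 206 CPM and Pdpn at 12.5, 830.2 and 32.3 CPM, in the same order, while Cd36 stood at 4766, 45.1 and 1523 CPM, so that the double-negative library, sorted as CD36 negative, held far more Cd36 transcript than the PDPN+ library. Of the 8 leukocyte markers, Cd3e and Adgre1 had 0 counts in both PDPN-negative libraries, and the sum was 15.4, 7.17 and 1.19 CPM. Lyz2 had 546 counts in CD36+ cells and 0 in both other libraries, and Cd79a had 292, 77 and 8 counts. Cd68 went the other way, with 1, 389 and 1 counts, and made 5.26 of the 7.17 CPM in PDPN+ cells. In bulk samples, fewer cells of a type and less RNA per cell cannot be told apart, and this holds for every comparison that follows.

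In both PDPN-negative libraries Ackr1 and Selp were among the most abundant transcripts, while the other 8 genes ranked from 168 (Sele, CD36+) to 2219 (Icam2, double-negative) among nuclear protein-coding genes by TPM. By TPM, which is per transcript length, the 10 genes summed to 35083 in CD36+ cells, 694.7 in PDPN+ cells and 30659 in double-negative cells. They held 3.58%, 0.104% and 3.07% of all estimated counts. Within CD36+ cells, the order by TPM was Ackr1, Selp, Sele, Pecam1, Jam2, Vcam1, Cd34, Icam1, Esam, Icam2. The double-negative library kept Ackr1, Selp, Sele and Pecam1 in the first 4 places and Esam and Icam2 in the last places, with Vcam1, Jam2, Icam1 and Cd34 between. In the PDPN+ library the order was Ackr1, Vcam1, Selp, Icam1, Pecam1, Sele, Cd34, Jam2, Icam2, Esam.

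**Figure D1:**
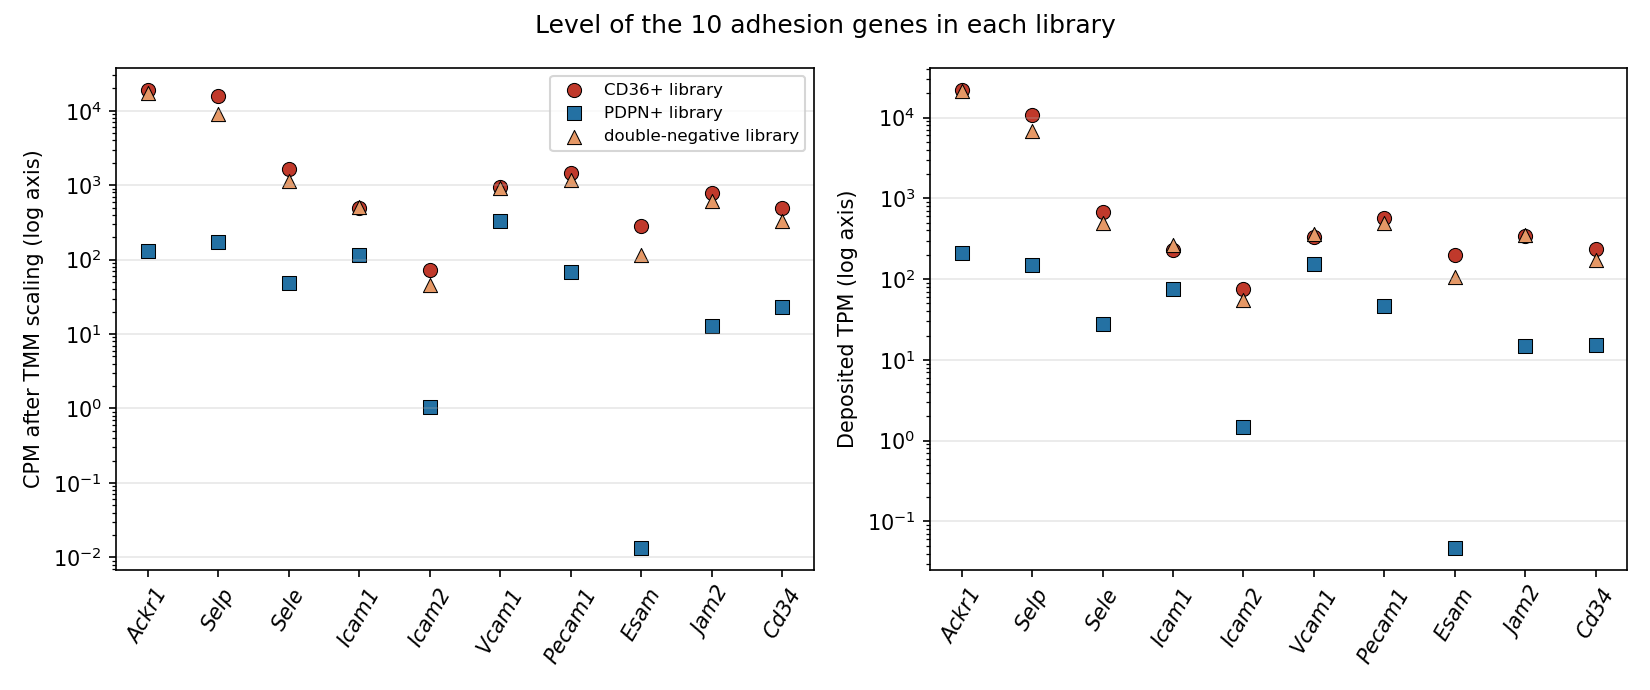
Level of each of the 10 genes in each library on log axes, as CPM after TMM scaling (left) and as the deposited TPM (right), 1 point per library. The PDPN+ library is lowest for all 10 genes on both scales, and Vcam1 and Icam1 show the smallest gaps.

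The PDPN+ library was compared with each PDPN-negative library to ask how the adhesion genes divide between populations titled Cdh5 negative and Cdh5 positive. These 2 comparisons share the PDPN+ library. Levels at least 4-fold different, with 10 CPM or more on the higher side, were taken as apart. With 1 library a group no test was possible, and folds carry an exact 95% interval from counting error alone. In the CD36+ library, 9 of the 10 genes were at least 4-fold higher than in PDPN+ cells, where 15.1% of the 9387 genes tested were, and none was lower, against 17.6% of genes. In the double-negative library it was also 9 of 10, against 14.9% of 9515 genes, with none lower against 19.3%. The exception was Vcam1 both times. The median log2 ratio of the 10 genes was 5.51 for CD36+ and 4.98 for double-negative, against medians of -0.02 and -0.11 over all genes tested. Over all genes, 1415 stood 4-fold higher and 1654 lower for CD36+, a split of 1120 and 2124 with scaling by total counts, of 1086 and 2034 by TPM, and of 1660 and 1381 with upper quartile scaling, where more genes were higher than lower. For the double-negative library the split was 1422 and 1834, and 1689 and 1530 with upper quartile scaling.

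Ackr1 (ENSMUSG00000037872, chromosome 1, 173331886 to 173333750, minus strand) encodes a receptor that binds inflammatory chemokines without signalling and carries them across venular endothelium. It stood at 18761 CPM in CD36+ cells, 129 in PDPN+ cells and 17174 in double-negative cells. By TPM the levels were 21701, 210.7 and 21568, and no other nuclear protein-coding gene stood higher in either PDPN-negative library. In the PDPN+ library Ackr1 ranked at place 692 by TPM, still first among the 10 genes. The CD36+ and double-negative levels were 146-fold (143 to 149) and 133-fold (131 to 136) that of the PDPN+ library by CPM, and 103-fold and 102-fold by TPM. The ratio of the PDPN-negative libraries to each other was 1.09 by CPM (1.089 to 1.095) and 1.01 by TPM, and it turned below 1 with scaling by total counts.

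Markers of red cell precursors, another cell type that carries ACKR1, were measured beside it. Their sum over 8 genes was 109 CPM in CD36+ cells, 3.12 in PDPN+ and 2.83 in double-negative cells. The globin genes Hbb-bs and Hba-a2 made most of the first value, at 51.6 and 41.9 CPM, and had 0 counts in both other libraries. Epb42, at 2.58, 3.11 and 2.81 CPM in the same order, made nearly all of both other sums. Klf1, a transcription factor of red cell precursors, had 0 counts in every library. The part of red cell precursors in the Ackr1 levels was not tested.

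Selp (ENSMUSG00000026580) encodes P-selectin, which reaches the cell surface within minutes of stimulation. Its level was 15929 CPM in CD36+ cells, 174 in PDPN+ cells and 9067 in double-negative cells. Both PDPN-negative libraries were far above the PDPN+ library, by 91.7-fold (90.1 to 93.3) and 52.2-fold (51.3 to 53.1). Selp also stood 1.76-fold higher in CD36+ than double-negative cells (1.751 to 1.763), and 1.58-fold by TPM. Since platelets hold P-selectin, platelet and megakaryocyte markers were read as well, and 8 genes summed to 14.3, 9.32 and 25.2 CPM for CD36+, PDPN+ and double-negative cells in turn. Ppbp and Pf4, which define platelets, had 1 and 2 counts in CD36+ cells and 0 and 1089 counts in double-negative cells, and both had 0 in PDPN+ cells. Others of the list went the other way, with Gp1ba at 292 counts in CD36+ cells against 1 in PDPN+ and 0 in double-negative cells, and Itga2b at 496, 659 and 81 counts in the same order. The part of platelets in the Selp levels was not tested.

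Sele (ENSMUSG00000026582), the E-selectin gene, stood at 1662 CPM in CD36+ cells, 48.6 in PDPN+ cells and 1133 in double-negative cells. Its folds over PDPN+ cells were smaller than those of Selp, 34.2 (33.1 to 35.4) and 23.3 (22.6 to 24.2). Like Selp, it was higher in CD36+ than double-negative cells, 1.47-fold (1.451 to 1.482). Per transcript length, Selp exceeded Sele in every library, by 16.0-fold in CD36+, 5.37-fold in PDPN+ and 13.5-fold in double-negative.

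Vcam1 (ENSMUSG00000027962, chromosome 3, 116109949 to 116129688, minus strand) encodes the ligand of the integrin VLA-4 and is also carried by some stromal and epithelial cells. It had the least uneven levels of the 10 genes, at 943 CPM in CD36+ cells, 326 in PDPN+ cells and 927 in double-negative cells. The PDPN-negative libraries were 2.89-fold (2.85 to 2.94) and 2.85-fold (2.80 to 2.89) above the PDPN+ library, and 2.17-fold and 2.35-fold by TPM. Vcam1 was the second of the 10 genes by TPM in PDPN+ cells, at 154.8, and took 22.3% of their summed TPM there, against 0.956% in CD36+ and 1.19% in double-negative cells. Between the PDPN-negative libraries it was 1.02-fold apart (1.004 to 1.029), with a direction that turned by TPM and by total counts. Stromal markers were read beside Vcam1: 6 pericyte genes summed to 259, 70.6 and 189 CPM and 6 fibroblast genes to 116, 611 and 61.1 CPM for CD36+, PDPN+ and double-negative cells in turn. Most of the pericyte sum was Rgs5, at 241, 51.9 and 164 CPM, while the median log2 ratio of the 6 pericyte genes to the PDPN+ library was -1.30 for CD36+ and -5.32 for double-negative. The part of stromal and basal cells in the Vcam1 levels was not tested.

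Icam1 (ENSMUSG00000037405, chromosome 9, 21015985 to 21028817, plus strand), the gene of a ligand for the leukocyte integrins LFA-1 and Mac-1, had the next smallest gap. Its CPM was 487 in CD36+ cells, 115 in PDPN+ cells and 511 in double-negative cells. The folds over PDPN+ cells, 4.24 (4.14 to 4.35) and 4.45 (4.34 to 4.56), lay just past the 4-fold limit. They were 3.05 and 3.49 by TPM, so Icam1 no longer counted as apart on that scale, nor with scaling by total counts. Icam1 alone of the 10 was higher in double-negative than CD36+ cells on TMM-scaled CPM, 1.05-fold (1.03 to 1.07), and it kept that direction in the 4 other scalings run, TPM among them.

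Icam2 (ENSMUSG00000001029, chromosome 11, 106377656 to 106388075, minus strand), a further LFA-1 ligand that resting endothelium carries without stimulation, was the least abundant of the 10 by TPM in both PDPN-negative libraries. It stood at 72.3 CPM in CD36+ cells, 1.04 in PDPN+ cells and 46.1 in double-negative cells. The PDPN+ value rests on 77 counts, and the folds over it were 69.4 (55.4 to 88.1) and 44.3 (35.3 to 56.3). The 2 ICAM genes thus divided differently: per transcript length Icam1 exceeded Icam2 by 3.01-fold in CD36+, 4.85-fold in double-negative and 51.6-fold in PDPN+.

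**Figure D2:**
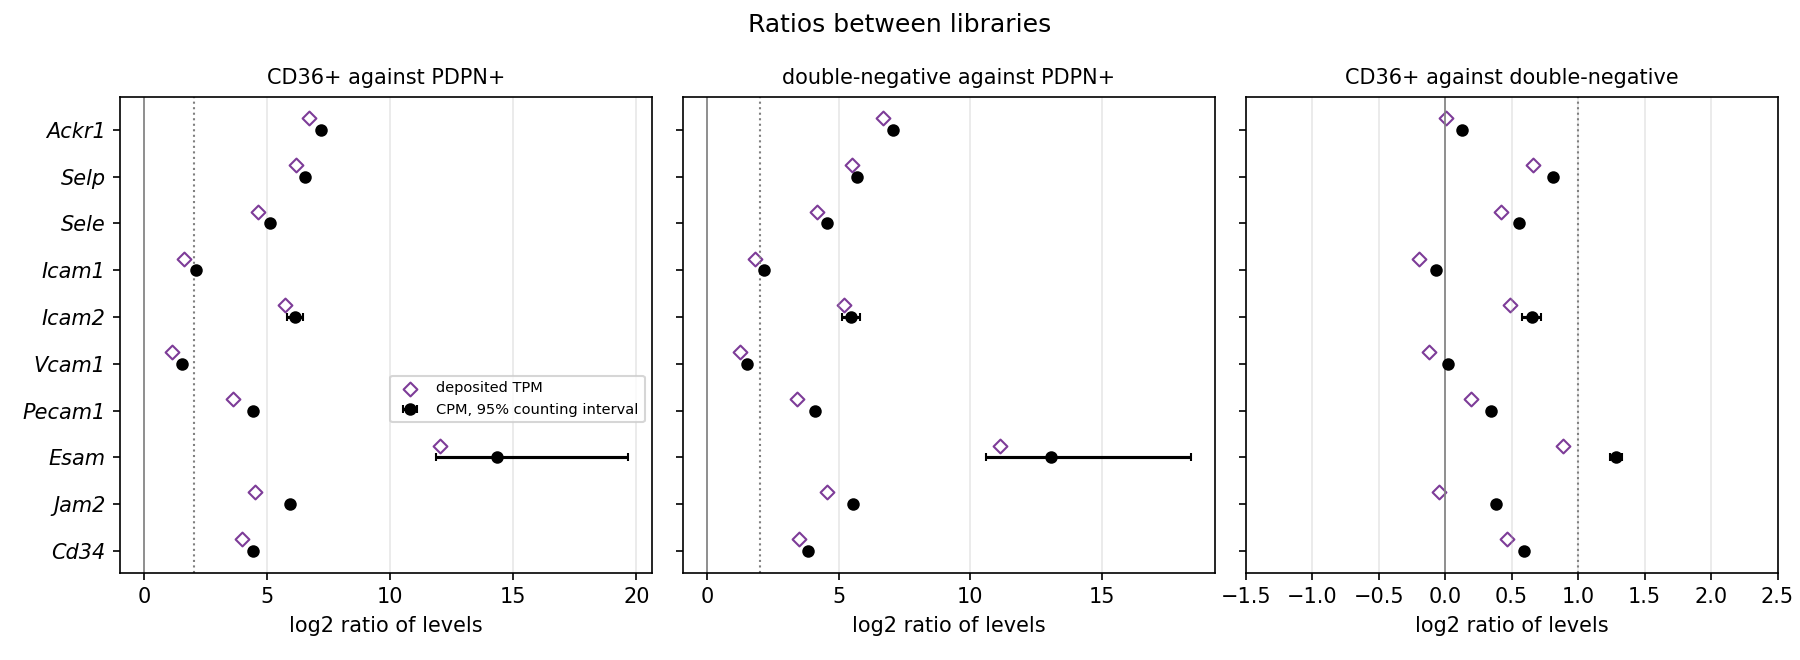
Log2 ratio of each gene in the 3 comparisons of libraries, from CPM (filled circles, bars for the exact 95% counting interval, often smaller than the symbol) and from the deposited TPM (open diamonds), with a dotted line at 4-fold in the first and second panels and at 2-fold in the third. Vcam1 and Icam1 lie nearest to 0 against the PDPN+ library and Esam farthest, and Esam alone passes 2-fold between the PDPN-negative libraries.

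Among the junction genes, Esam had the widest division of all. Esam (ENSMUSG00000001946, chromosome 9, 37528078 to 37538319, plus strand), an adhesion protein of endothelial tight junctions and platelets, stood at 282 CPM in CD36+ cells and 116 in double-negative cells. A single count was found in PDPN+ cells. The CD36+ ratio of 20854 therefore has a counting interval from 3742 to 823741, and the double-negative ratio of 8559 one from 1535.5 to 338106. Esam was also 2.44-fold higher in CD36+ than double-negative cells (2.37 to 2.51), the only gene of the 10 past 2-fold between them, and 1.85-fold by TPM.

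Pecam1 (ENSMUSG00000020717, chromosome 11, 106654217 to 106750628, minus strand) encodes CD31, which leukocytes and endothelium share and which pairs with itself during passage. Its CPM was 1475 in CD36+ cells, 68.4 in PDPN+ cells and 1165 in double-negative cells. The folds over PDPN+ cells were 21.6 (20.96 to 22.2) and 17.0 (16.5 to 17.5), and 12.3 and 10.7 by TPM. Between the PDPN-negative libraries Pecam1 was 1.27-fold higher in CD36+ (1.25 to 1.28). Per transcript length, Pecam1 exceeded Esam 2.91-fold in CD36+ and 4.70-fold in double-negative cells. Pecam1 in PDPN+ cells was 4.64% of its CD36+ level, a larger remainder than for either selectin.

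Jam2 (ENSMUSG00000053062, chromosome 16, 84774123 to 84825928, plus strand) encodes JAM-B, a junction protein of venules and lymphatics. It stood at 796 CPM in CD36+ cells, 13.0 in PDPN+ cells and 612 in double-negative cells. The CPM folds of 61.2 (57.4 to 65.3) and 47.0 (44.1 to 50.2) over PDPN+ cells were 22.8 and 23.6 by TPM, the widest gap between the scales apart from Esam. Between the PDPN-negative libraries Jam2 was 1.30-fold higher in CD36+ by CPM (1.28 to 1.32) and 1.03-fold higher in double-negative by TPM.

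Cd34 (ENSMUSG00000016494, chromosome 1, 194938819 to 194961279, plus strand) encodes a sialomucin of endothelium and blood progenitors that carries selectin ligands in some venules. It stood at 495 CPM in CD36+ cells, 23.2 in PDPN+ cells and 328 in double-negative cells. The folds over PDPN+ cells were 21.4 (20.3 to 22.4) and 14.1 (13.4 to 14.8). In the CD36+ library Cd34 was 1.51-fold higher than in double-negative cells (1.48 to 1.54).

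The share of each gene that was left in PDPN+ cells differed widely. As a percentage of the CD36+ level on CPM it was under 2% for Esam, Ackr1, Selp, Icam2 and Jam2, with 0.0048%, 0.687%, 1.09%, 1.44% and 1.63%. It was 2.92% for Sele, 4.64% for Pecam1 and 4.68% for Cd34, and reached 23.6% for Icam1 and 34.6% for Vcam1. For comparison, the 10 pan-endothelial markers lay between 0% (Robo4, with 0 counts) and 2.48%, with a median of 1.29%, while the median of the 10 adhesion genes was 2.28%. On CPM, Sele, Pecam1, Cd34, Icam1 and Vcam1 thus lay above every one of those markers. By TPM only Icam1 (32.8%) and Vcam1 (46.2%) did, since Eng kept 19.8% and Flt1 8.27%, against 4.10% for Sele, 8.16% for Pecam1 and 6.46% for Cd34.

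**Figure D3:**
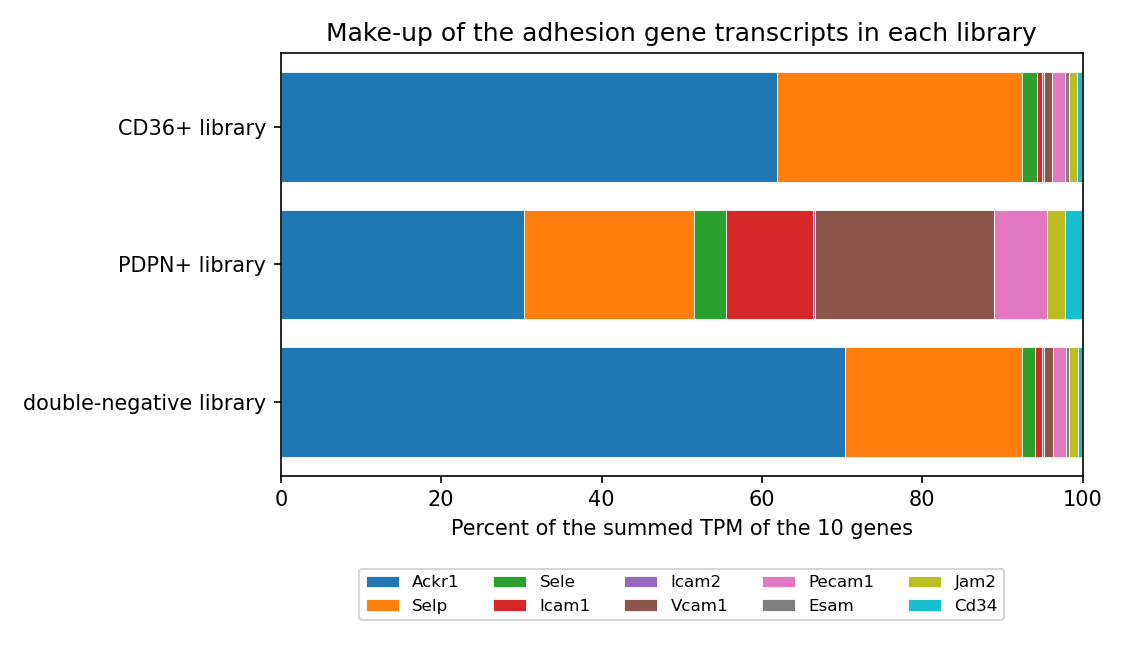
Percentage of the summed TPM of the 10 genes that each gene takes, 1 bar per library. Ackr1 and Selp together fill most of the CD36+ bar (61.9% and 30.6%) and the double-negative bar (70.4% and 22.1%), and Vcam1 (22.3%) and Icam1 (10.9%) take wide parts of the PDPN+ bar.

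The CD36+ and double-negative libraries differ, by the labels, in the sort for CD36 alone, and Cd36 itself was 3.13-fold higher in the first by CPM. None of the 10 genes was 4-fold apart between them, where 12.2% of 8968 genes were higher and 11.9% lower in CD36+. Only Esam passed 2-fold, with 22.9% of genes that far higher and 21.0% lower. By TMM-scaled CPM, 9 of the 10 were higher in CD36+ cells and Icam1 lower. The median log2 ratio was 0.47 for the 10 genes, 0.59 for the 10 pan-endothelial markers and 0.11 over all genes tested. The order ran from Esam (2.44-fold) through Selp (1.76), Icam2 (1.57), Cd34 (1.51), Sele (1.47), Jam2 (1.30) and Pecam1 (1.27) to Ackr1 (1.09), Vcam1 (1.02) and Icam1. Every counting interval excluded 1, which says nothing of the spread between libraries of 1 population. Markers of lymphatic vessels, whose cells also carry Jam2, summed to 64.4 CPM in CD36+ and 3503 in double-negative cells. Ccl21a, a chemokine of lymphatics and lymphoid venules, made 34.4 and 3463 CPM of these sums. The lymphatic master factor Prox1 stood at 18.1 and 21.1 CPM, and Flt4 was lower in double-negative cells, at 11.9 and 3.09 CPM. Lyve1 had 1 and 2 counts, Reln 4 and 7, and Mmrn1 0 and 776, in the same order. The part of these cells in the differences was not tested.

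Genes most like Ackr1, Pecam1 and Vcam1 in their levels over the libraries were looked for next. Likeness was taken as the distance in the 2 log2 ratios to the PDPN+ library, over the 1923 protein-coding genes averaging 100 CPM or more, and it rests on 3 libraries. Nearest to Ackr1 were Ypel2 (distance 0.33), the interferon-induced chemokine gene Cxcl9 (0.44), Prex2 (0.47), Zeb1 (0.70) and Rnf125 (0.74). Cxcl9 stood at 306 CPM in CD36+ cells, 1.65 in PDPN+ cells and 183 in double-negative cells. Pecam1 had closer neighbours, namely Plscr1, the Wnt receptor gene Fzd4 and Ppfibp1 (0.14 each), Pdlim1 (0.19) and Tspan13 (0.21). The closest were those of Vcam1, which were Cav2, a caveolin gene, and Agpat5 (0.07 each), Cnn3 and Afdn, an adaptor of cell junctions (0.08 each), and Mrpl33 (0.09).

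Other genes of leukocyte capture were read from lists. Of 27 further endothelial adhesion genes, 22 reached 1 CPM in some library. At the 4-fold limit, 8 of these were higher and 0 lower in CD36+ than PDPN+ cells, with a median log2 ratio of 1.24, and 9 were higher and 1 lower in double-negative cells, with a median of 1.91. The higher genes are 36.4% and 40.9% of the 22. Over all 17533 genes that reached 1 CPM, the medians were -0.07 and -0.05. Of those genes, 8.07% were higher and 9.43% lower for CD36+, and 8.11% higher and 10.5% lower for double-negative. Over genes with at least 10 CPM in either library, which the limit requires, 15.1% and 14.9% were higher and 17.6% and 19.3% lower. Cd200, which restrains myeloid cells, stood at 1357, 101 and 1619 CPM for CD36+, PDPN+ and double-negative cells in turn. Emcn, an endothelial sialomucin, stood at 1209, 30.0 and 985 CPM, and Cd47, a signal against phagocytosis that most cells carry, at 1077, 231 and 914 CPM.

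Unlike the 10 genes, 2 of this list were over 4-fold lower in CD36+ than double-negative cells. They are 9.09% of those measured, where 6.10% of all measured genes were lower, and 11.9% of those at 10 CPM. Glycam1, a secreted mucin known from lymph node venules and milk, stood at 12.5 CPM in CD36+ cells, 12.3 in PDPN+ cells and 3021 in double-negative cells. Bst1, an ectoenzyme of stromal and myeloid cells, stood at 18.0, 5.73 and 175 CPM. The one gene of the list over 4-fold lower in double-negative than PDPN+ cells was Madcam1, a gut vessel ligand, with 2 counts against 14.4 CPM.

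The partners of these molecules on leukocytes were read next. Of 14 counter-receptor genes, 7 reached 1 CPM, and at the 4-fold limit 0 were higher and 1 was lower in each PDPN-negative library against PDPN+. The lower gene is 14.3% of the 7, where 9.43% and 10.5% of all measured genes were lower, and 17.6% and 19.3% of those at 10 CPM. That one was Cd44, a hyaluronan receptor that many cells carry, at 19.4 CPM in CD36+ cells, 534 in PDPN+ cells and 65.0 in double-negative cells. Itgb1, the shared beta 1 integrin chain, stood at 618, 887 and 777 CPM, Itga9 at 51.7, 36.6 and 42.4 CPM and Itga4, the VLA-4 chain, at 6.47, 7.55 and 12.2 CPM. The chains of LFA-1, Itgal and Itgb2, had 3 and 5 counts in CD36+ cells, 2 and 1 in PDPN+ cells, and 1 each in double-negative cells.

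Inducers of Sele, Vcam1 and Icam1 were examined as receptors and as NF-kappa B genes, NF-kappa B being the factor that cytokines release to switch these genes on. Of 12 cytokine receptor and adaptor genes, all measured, 5 were at least 4-fold higher and 0 lower in CD36+ cells against PDPN+ (median log2 ratio 1.77), and 5 were higher and 1 lower in double-negative cells (median 1.07). The same 5 genes were meant both times, namely Il6st, Il1r1, Hrh1, Tlr4 and Tnfrsf1b. They are 41.7% of the list, and the gene lower in double-negative cells is 8.33%. Over all measured genes, 8.07% and 8.11% were higher and 9.43% and 10.5% lower. Over genes with at least 10 CPM in either library, 15.1% and 14.9% were higher and 17.6% and 19.3% lower. The interleukin 1 receptor gene Il1r1 stood at 393, 26.5 and 192 CPM for CD36+, PDPN+ and double-negative cells in turn, and Il6st, the shared receptor chain of the interleukin 6 family, at 1330, 182 and 1184 CPM. Osmr and Il13ra1, receptor chains for oncostatin M and interleukin 13, were nearer to even, with Osmr at 497, 354 and 763 CPM and Il13ra1 at 371, 214.9 and 438 CPM. Il1rap, the partner chain of Il1r1, went the other way in double-negative cells, at 6.91 against 38.2 CPM.

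Of 17 NF-kappa B pathway and target genes, all measured, 6 were at least 4-fold higher and 1 lower in each PDPN-negative library against PDPN+, with median log2 ratios of 1.13 and 0.62. The 6 genes are 35.3% of the list and the lower gene 5.88%. All 17 had at least 10 CPM in either library of each comparison. Over all such genes, 15.1% and 14.9% were higher and 17.6% and 19.3% lower. Csf3, a granulocyte growth factor, stood at 8621, 116 and 4493 CPM for CD36+, PDPN+ and double-negative cells in turn. Nfkbia, the inhibitor that NF-kappa B itself induces, stood at 3265, 205 and 2848 CPM, the neutrophil chemokine Cxcl1 at 2595, 542 and 3111 CPM, and Il6 at 2232.5, 78.8 and 1522.5 CPM. Nfkbie went the other way, at 1.62 against 14.7 CPM in CD36+ and at 0 counts in double-negative cells. The other genes past the limit, Nfkbiz and Tnfaip3, which NF-kappa B induces, were higher in both PDPN-negative libraries.

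**Figure D4:**
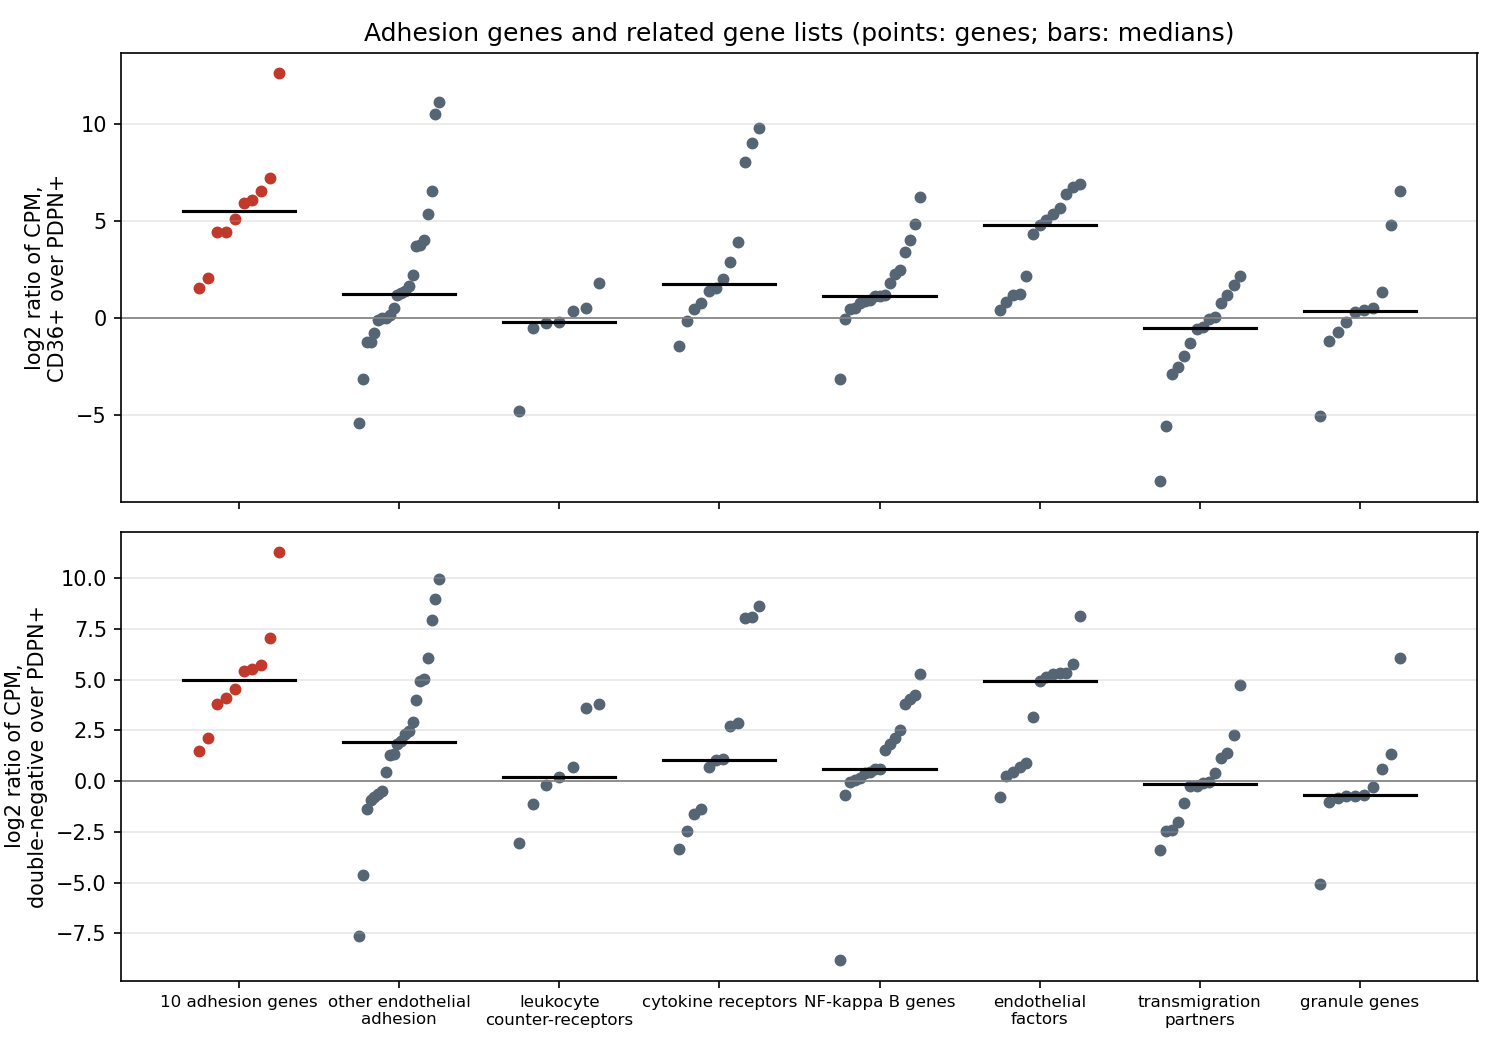
Log2 ratio of TMM-scaled CPM (prior count of 2) of the CD36+ (top) and double-negative (bottom) library over the PDPN+ library, 1 point per gene with at least 1 CPM in any library, for the 10 adhesion genes and 7 related lists, with bars at the medians. All 10 adhesion genes lie above 0 in both panels, and the endothelial factors all do so in the upper panel. In the lower panel each other list, endothelial factors included, has genes on both sides.

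Transcription factors of endothelium were mostly higher outside the PDPN+ library. Of 13 measured among 14, 8 were at least 4-fold higher in CD36+ and 7 in double-negative cells against PDPN+, with 0 lower and medians of 4.79 and 4.95. The higher genes are 61.5% and 53.8% of those measured. Over all genes with at least 10 CPM in either library, 15.1% and 14.9% were higher and 17.6% and 19.3% lower. Ets1 stood at 965, 19.0 and 676.5 CPM for CD36+, PDPN+ and double-negative cells in turn, Fli1 at 430, 5.06 and 204 CPM and the venous factor Nr2f2 at 407, 9.82 and 390 CPM. Ets2, of the same ETS family as Ets1 and Fli1, was less uneven, at 375, 162 and 224 CPM.

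Genes that act inside the endothelial cell were read as partners of the adhesion proteins and as granule genes. Of 14 partners of ICAM-1 and PECAM-1 in passage, 1 was at least 4-fold higher and 2 lower in CD36+ cells (median -0.52), and 1 higher and 4 lower in double-negative cells (median -0.16). The single higher gene is 7.14% of the list both times, and the lower genes are 14.3% and 28.6%. Over all measured genes, 8.07% and 8.11% were higher and 9.43% and 10.5% lower. Over genes with at least 10 CPM in either library, 15.1% and 14.9% were higher and 17.6% and 19.3% lower. The higher gene was Cav1, a caveolae coat gene, at 772, 172 and 822 CPM for CD36+, PDPN+ and double-negative cells in turn. Msn, a membrane linker that binds the tails of ICAM-1 and VCAM-1, stood at 1220, 369 and 972 CPM, its relative Rdx at 435, 415 and 559 CPM, and Ctnnb1, the junction protein beta-catenin, at 507, 222 and 494 CPM. Trio, a signalling gene, was lower in both PDPN-negative libraries, at 59.8 and 60.6 against 336.5 CPM, as was the kinase gene Src, at 0 and 2.02 against 10.9 CPM. Ezr and Rhog passed the limit in double-negative cells alone, at 48.6 against 198 CPM and 1.09 against 11.7 CPM. Of 10 genes of the granules that store P-selectin, 2 were at least 4-fold higher in CD36+ and 1 in double-negative cells, with 0 lower and medians of 0.36 and -0.68. For CD36+ the share of higher genes lay above the 8.07% of all measured genes and the 15.1% of those at 10 CPM. For double-negative cells it lay above the 8.11% but below the 14.9%. The shares rest on so few genes that they do not set the granule list apart from all genes. Vwf, the main cargo beside P-selectin, stood at 724, 7.69 and 518 CPM. The other gene higher in CD36+ cells was Sytl4, a granule release factor, at 11.7, 0.392 and 0.317 CPM. Cd63, a granule membrane protein that most cells carry, stood at 647, 1439 and 713 CPM, Ap3b1 at 41.0, 67.7 and 103 CPM and Rab27a at 53.1, 42.4 and 25.6 CPM.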

How the data were processed

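Gene tables of 3 sorted mouse mammary populations were used, 1 library each, grouped by the labels. The authors deposited estimated counts and TPM per gene; Salmon 0.9.1 and mm10 were used, per the submitters' processing notes. Annotation release, strand setting and filters are not stated there. Per the labels' protocols, a low-input kit or a stranded kit that removes ribosomal RNA was used, and which served which library is not given, so kit and population cannot be told apart. The design text also names single-cell sequencing, which is not analysed here.

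Deposited estimated counts were rounded. Identifiers were matched to GENCODE M21 without version (52566 of 52661). TMM factors came from edgeR 4.0.16 (R 4.3.3) over all 3 libraries, and log2 ratios used a prior count of 2. Python 3.11.15, scipy 1.17.1 and DESeq2 1.42.0 size factors served the rest. With 1 library per population there was no test and no p-value. Folds carry exact Clopper-Pearson 95% intervals, which cover counting error only, without molecular identifiers. The size rule was tried on simulated counts with few changed genes and counting error alone. That trial says nothing of the spread between libraries of 1 population. Alternatives were other scalings, TPM (with 0.1 added before log2), fold and CPM limits and prior count.

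The genes and lists were chosen with earlier results of these data known. Named beside the 10 genes were, by rule, up to 4 genes per list with the highest mean CPM, genes at least 4-fold against the direction of their list, and the 5 nearest genes of Ackr1, Pecam1 and Vcam1. Itgal, Itgb2, Bst1, Hrh1, Tlr4, Tnfrsf1b, Nfkbiz, Tnfaip3, Sytl4, Trio, Src, Ezr, Rhog, the sort genes, single markers and the overlapping genes were named after their values were seen. Some items are not reported here.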

Additional observations from a re-analysis of the deposited data

How the results depend on the processing

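No value has a replicate, so these limits concern scaling and counting alone. Against the PDPN+ library, total counts moved log2 ratios by -0.40 (CD36+) and -0.23 (double-negative), upper quartile scaling by 0.27 and 0.28, and TPM by a median of -0.48 and -0.36. Genes with few counts, such as Esam, moved less under the first 2 scalings because of the prior count. Between the PDPN-negative libraries total counts moved them by -0.17 and TPM by a median of -0.13. Under these settings and DESeq2 size factors, 8 or 9 of the 10 genes remained at least 4-fold higher in each PDPN-negative library, and Icam1 was the gene lost with total counts and TPM. Icam2 was lost from the double-negative comparison with a minimum of 50 CPM, which it does not reach. With a fold of 2 all 10 were apart against PDPN+, and 1 (Esam) was apart between the PDPN-negative libraries. There, directions turned for Ackr1 (log2 ratio -0.0471) and Vcam1 (-0.1506) with total counts and for Vcam1 (-0.1186) and Jam2 (-0.0465) by TPM. Over all genes, a fold of 2 gave 2375 higher and 2633 lower for CD36+ against PDPN+, 2419 and 2870 for double-negative against PDPN+, and 2057 and 1882 for CD36+ against double-negative. A minimum of 1 CPM gave 2727 and 3699, 2700 and 3975, and 2712 and 2588 in the same order, and a minimum of 50 CPM gave 626 and 445, 534 and 481, and 143 and 158. Leaving out a replicate could not be tried. The single count of Esam in PDPN+ cells limits its ratios to wide intervals.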

Other observations

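Antisense genes overlap some of the adhesion genes. Over Selp, on the other strand, lie Gm16587, at 82.3 CPM in CD36+ cells, 0 counts in PDPN+ cells and 55.9 CPM in double-negative cells, and the noncoding gene Gm16548, at 37.0 CPM, 1 count and 40.4 CPM. Both have the direction of Selp against the PDPN+ library. Between the PDPN-negative libraries Gm16587 was higher in CD36+ cells, as Selp was, and Gm16548 slightly higher in double-negative cells. Whether the counting used strand is not given, and without strand, reads of Selp and of these genes cannot be told apart. Cadm3, which overlaps Ackr1 on the same strand, stood at 35.4, 1.70 and 17.1 CPM.

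Estimated counts divided by TPM give the mean effective transcript length behind each TPM, with Sele, which has 1 annotated transcript, as the ruler. In each library this ruler held within 0.1% for 99.85 to 99.86% of the genes with 1 annotated transcript and at least 1000 counts. For Jam2, with 4 annotated transcripts, the length was 2559 bases in CD36+ cells, 1340 in PDPN+ cells and 2093 in double-negative cells. For Pecam1, with 8, it was 2843, 2271 and 2827 bases. Vcam1 differed less, at 3091.5, 3252 and 3079 bases, and Ackr1 less still, at 950.4, 945 and 962.5 bases. The Jam2 estimate in PDPN+ cells rests on 962 counts. The gene lengths deposited beside these values do not match them for genes with several transcripts and were not used.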
